A study of Mus musculus with 13 samples.

Results

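The comparison covers 4 RNA pull-downs made with the KH and Tudor domains of dAKAP1 (KHT 1 to 4) and 4 negative control pull-downs (NEG 1, 3, 4 and 5), which are 8 of the 13 libraries of the series. These libraries were chosen by their titles, and NEG 2 was left out because all its values were 0. The RNA of all 8 came from MA-10, an established steroid-producing line from a mouse Leydig cell tumour, and all were recovered with an antibody against maltose-binding protein (MBP). For KHT the bait was purified protein of the KH and Tudor domains. For NEG it was empty beads, MBP alone or a protein named KHT(GDDG), and no label assigns a bait to a given NEG library. NEG is therefore a mix of up to 3 kinds of control. The 4 libraries of input RNA (IPT) were not part of the contrast, but they entered the fit. They took part in the filter on low counts, the scaling and the estimate of the spread between libraries. With KHT and NEG fitted alone, 8485 genes were tested in place of 10714. No spike-in RNA is named in the labels, so the amount of RNA recovered cannot be read from the counts, and every fold change below depends on how the libraries were scaled. Nothing in the labels says that libraries of a group came from separate cultures. The p-values therefore measure only the spread between libraries within a group, which may be technical. That spread was estimated over the 12 libraries of the fit, input included.

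dAKAP1, the product of Akap1, is a scaffold of the outer mitochondrial membrane that anchors protein kinase A and also binds RNA. A KH domain is a small fold that holds a short run of bases in single-stranded RNA, and a sequence loop named GXXG in such domains contacts the RNA backbone. Changes of that loop to GDDG are commonly used to weaken RNA binding. Tudor domains bind methylated arginine or lysine on other proteins. In steroid-making cells dAKAP1 is known for holding messenger RNAs of mitochondrial proteins near the organelle.

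The KHT libraries held 1955446 to 3689792 estimated counts and the NEG libraries 1162178 to 1618998, so the totals alone differed by a ratio of 1.83 between the group means. The content of the libraries differed far more. In each NEG library 96.0% to 98.1% of the counts lay in 9 features that each held at least 0.5% of the pooled NEG counts, against 29.3% to 52.7% in a KHT library. The 9 features were picked by their share of NEG alone, so part of this contrast is built in. Outside these 9 features, NEG 1, 3, 4 and 5 kept 31318, 39301, 34633 and 49062 counts. KHT 1 to 4 kept 1738054, 1049095, 2101632 and 929348. Counts were found at 2173, 4082, 3355 and 7047 features in the 4 NEG libraries and at 16194 to 18532 in KHT. NEG 5 stood apart from the other NEG libraries in the number of features it touched, not in its total. The RNAs of steroid synthesis that mark Leydig cells were present in each KHT library: Star had 231, 114, 557 and 219 counts in KHT 1 to 4, and Nr5a1, the transcription factor that switches on steroidogenic genes, had 1284, 805, 1698 and 700. In NEG 1, 3, 4 and 5 Nr5a1 had 0, 8, 4 and 30.

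**Figure D1:**
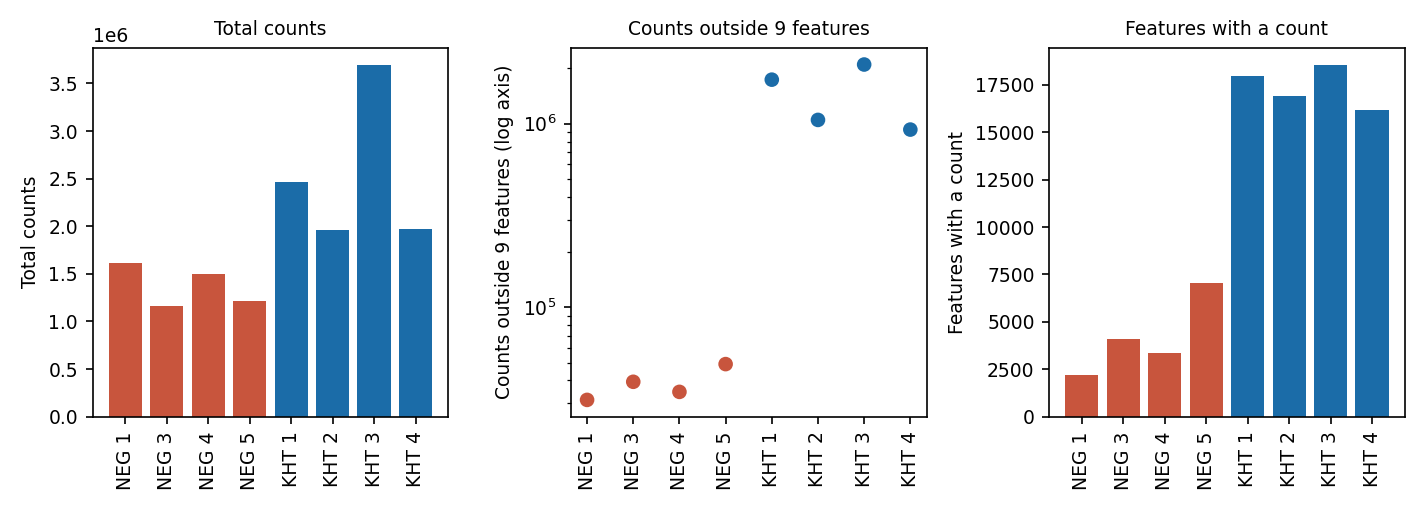
Total estimated counts, counts outside the 9 features that dominate NEG (log axis) and features with at least 1 count, for each of the 4 NEG (red) and 4 KHT (blue) libraries. The totals differ little beside the counts outside the 9 features, which are 31318 to 49062 in NEG and at least 929348 in KHT, and NEG 5 has the most features among the NEG libraries.

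With the libraries scaled by TMM, which trims extreme genes and sets the mean change of the rest to none, 10714 genes were tested and 3324 of them (31.0%) were higher in KHT than in NEG, while 291 (2.72%) were lower (edgeR quasi-likelihood test, adjusted p under 0.05). Among the most abundant that rose were Fasn, fatty acid synthase, Slc7a5 and Slc38a2, which carry amino acids into cells, and Rpl13, which encodes part of the large ribosomal subunit. Among those that fell were Rps13 of the small ribosomal subunit and the 2 microRNA gene models tested. The median log2 fold change over all 10714 genes was 1.73, and 1.46 over genes averaging 10 CPM or more (counts scaled to library size), so TMM did not place the typical gene at zero. Leaving out NEG 1 lowered the number of higher genes to 1721, and leaving out NEG 5 raised it to 5421. The number of lower genes became 174 without NEG 3, 186 without NEG 4 and 454 without NEG 5.

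The scaling set both the number and the balance of the calls. TMM gave NEG 1 an effective size of 7.46 per count outside the 9 features, against 4.14 to 4.95 in the other NEG and KHT libraries. It gave the mean KHT library 31.3 times the effective size of the mean NEG library. With total counts as library size that ratio was 1.83, and 10426 genes (97.3%) were higher and 14 (0.131%) lower, with a median log2 fold change of 5.66. When library size was taken from the counts outside the 9 features, the ratio was 37.7, and 2299 genes (21.5%) were higher and 325 (3.03%) lower. With the median gene of at least 10 CPM set to no change the ratio was 86.0, and 72 genes (0.672%) were higher and 516 (4.82%) lower. The share of calls that were higher thus went from 99.9% under total counts to 92.0% under TMM, 87.6% with the 9 features left out and 12.2% after median centring. Under TMM, a test against a change of 2-fold left 1734 genes (16.2%) higher and 150 (1.4%) lower. TMMwsp, a form of TMM made for tables with many zeros, gave 3412 and 294, and the size factors of DESeq2 used in edgeR gave 3603 and 284. All 72 genes called higher after median centring were also called higher under TMM, and 284 of the 291 lower genes kept that call. Median centring only rescaled the KHT libraries of the TMM fit by a constant, so this overlap was largely built in. Of the same 291 genes, 139 were called higher in KHT under total counts. Total counts ask whether a transcript took a larger share of all reads in KHT, and the other scalings ask whether it changed more than a chosen set of transcripts did.

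**Figure D2:**
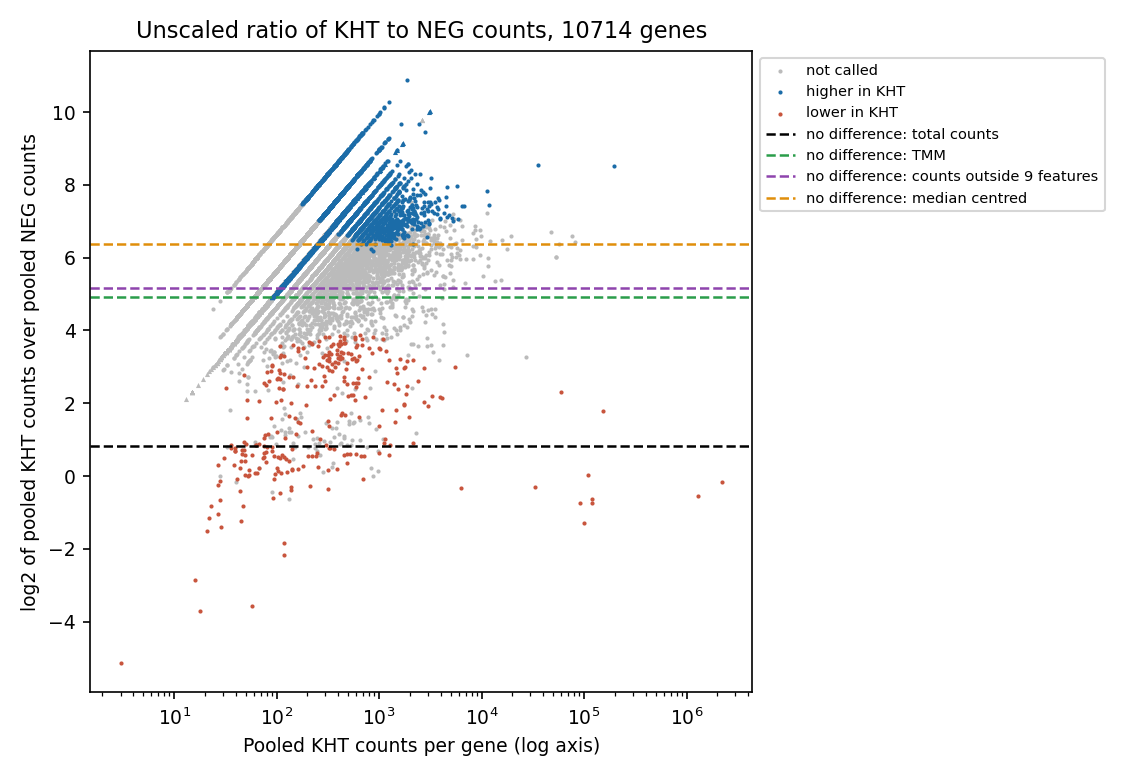
Ratio of pooled KHT counts to pooled NEG counts, without any scaling and on a log2 axis, against the pooled KHT count of each of the 10714 genes (log axis). Blue genes were called higher and red genes lower under TMM, triangles are genes at 0 in NEG drawn against a floor of 3 counts, and the dashed lines mark the ratio of library sizes that each scaling treats as no difference. Most genes lie above the line of total counts, and the median-centred line runs through the bulk of them.

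**Figure D3:**
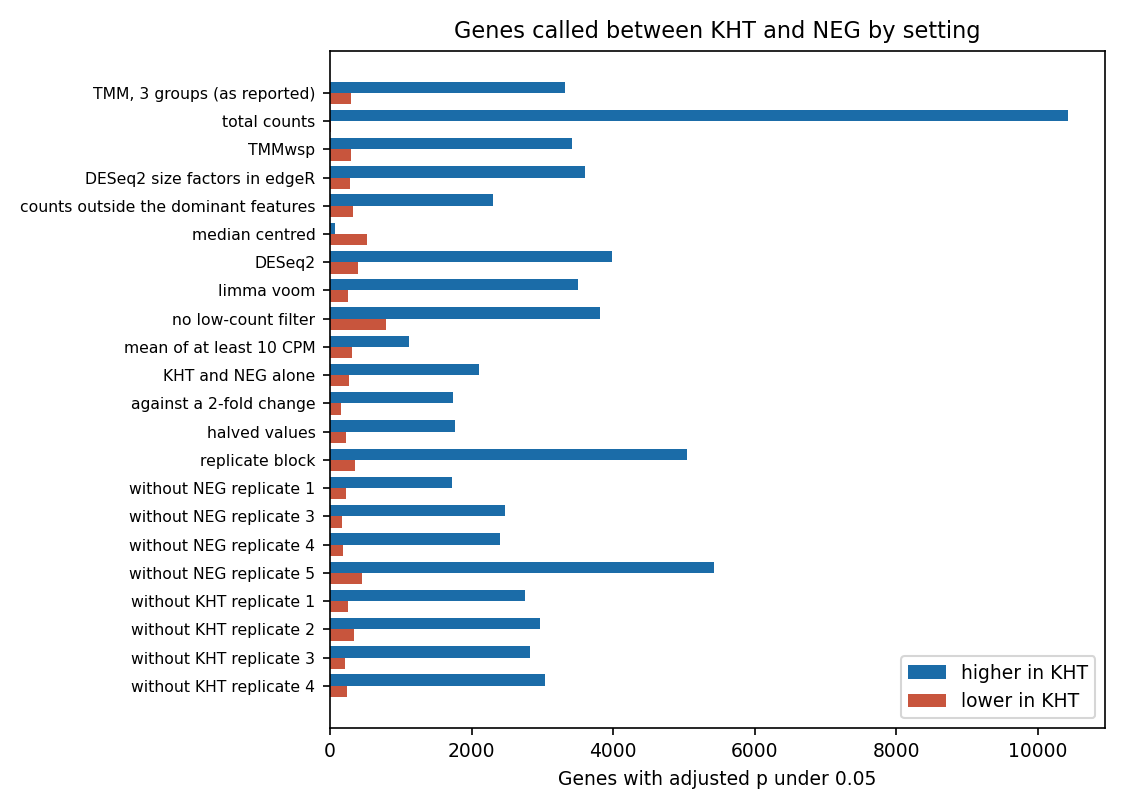
Number of genes with an adjusted p under 0.05 that were higher (blue) or lower (red) in KHT than in NEG under each setting. The higher calls run from 72 with median centring to 10426 with total counts, and in the fit without NEG 5 they reach 5421.

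Much of the NEG side was made of zeros. Of the 10714 tested genes, 2986 (27.9%) had no count in any of the 4 NEG libraries, and 3813 (35.6%) had counts in a single NEG library. That library was NEG 5 for 2916 genes, NEG 3 for 487, NEG 4 for 303 and NEG 1 for 107. Only 749 genes (6.99%) had counts in all 4. Of the 3324 higher genes, 1473 were at 0 in NEG and 896 had 1 to 3 counts there in all, so a fold change could be measured with at least 4 NEG counts for 955. The call held in each of the 8 fits without 1 library for 1608 of the 3324 higher genes and for 118 of the 291 lower genes. Values of all 4 KHT libraries lay above all 4 NEG values for 3115 of the 3324, beside 4905 (45.8%) of all genes tested. All 4 KHT values lay below all 4 NEG values for 95 of the 291, beside 109 (1.02%) of all genes tested.

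The zeros were also set against the counts each gene would have had in NEG if the counts outside the 9 features had been spread as they were in KHT. For 3723 genes that number was at least 10 over the 4 NEG libraries. Of these, 182 (4.89%) were at 0 in NEG, 1177 (31.6%) were within 2-fold of that number, and the median ratio of observed to expected counts was 0.391. Without NEG 5 the median ratio was 0.172 and 1068 genes were at 0. Of the 3723 genes 44.3% were called higher under TMM. That share was 34.6% among genes with 3 to 10 expected counts, 6.19% with 1 to 3 and 18.6% with 100 or more. The gene lists below were not matched for expected counts. Over the same 3723 genes the rank correlation with the mean KHT composition was 0.178, 0.363 and 0.323 for NEG 1, 3 and 4 and 0.583 for NEG 5. These are descriptions across genes, which are not independent replicates, and the libraries differ in depth. KHT libraries gave 0.786 to 0.831, a value that includes each library in the mean it was compared with.

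The 12 most abundant genes that rose and kept their call in each fit without 1 library included enzymes of lipid synthesis (Fasn, Cers6), amino acid transporters (Slc7a5, Slc38a2) and Rpl13. Rnf213, a large ubiquitin ligase on chromosome 11 (119389950 to 119487418, GRCm38), had 0, 9, 0 and 14 counts in NEG 1, 3, 4 and 5 and 2633, 1494, 1100 and 506 in KHT 1 to 4. In TMM-scaled CPM its mean was 236 ± 127 in KHT against 28.1 ± 32.5 in NEG (n = 4 each, ± SD), with a log2 fold change of 3.05 (SE 0.95, adjusted p = 0.0211). The KHT libraries split into pairs for this gene, with 349 and 344 CPM in KHT 1 and 2 and 125 and 127 in KHT 3 and 4, and each was above the highest NEG value of 57.7. Fasn, which makes palmitate, had 0, 0, 3 and 16 counts in NEG and 906, 565, 2251 and 907 in KHT. Its level in CPM was 184 ± 68.6 in KHT against 21.6 ± 31.1 in NEG (log2 fold change 3.03, SE 0.91, adjusted p = 0.0180), and here KHT 3 and 4 were the higher pair. Cers6, a ceramide synthase, was counted in each NEG library, with 2, 6, 4 and 13, against 1029, 559, 1503 and 604 in KHT (log2 fold change 2.22, SE 0.67, adjusted p = 0.0187). Its KHT range of 129 to 171 CPM did not overlap the NEG range of 8.56 to 53.6. The call for Cers6 was lost when only genes averaging 10 CPM or more were tested (adjusted p = 0.0501), with KHT and NEG fitted alone (0.121) and against a change of 2-fold (0.0612).

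Slc7a5, the light chain of a transporter of large neutral amino acids (chromosome 8, 121881146 to 121907686), had 4 counts in NEG, all in NEG 5, and 1159, 715, 670 and 262 in KHT. The log2 fold change was 4.55 (SE 0.95, adjusted p = 0.0040), and KHT 1 and 2, at 154 and 165 CPM, were again apart from KHT 3 and 4, at 76.4 and 65.7. Slc38a2, a transporter of small neutral amino acids, had 2, 3, 1 and 7 counts in NEG and 1040, 673, 1030 and 390 in KHT. Its level was 127 ± 24.8 CPM in KHT against 15.6 ± 10.2 in NEG (n = 4 each, ± SD), with a log2 fold change of 2.98 (adjusted p = 0.00557). Fam120a, an RNA-binding scaffold, was at 0 in NEG 1 and 4, at 9 counts in NEG 3 and at 2 in NEG 5, against 1083, 587, 1056 and 502 in KHT (log2 fold change 3.14, adjusted p = 0.0120). Abhd2, a lipid hydrolase, Sptbn1, the spectrin that lines membranes, Grn, the secreted protein progranulin, Atad2, a chromatin ATPase, and Arpc5l, a subunit of the Arp2/3 complex that branches actin, were the other members besides Rpl13. Their log2 fold changes were between 2.28 for Sptbn1 and 2.82 for Atad2. With KHT and NEG fitted alone the calls of Rnf213 (adjusted p = 0.0510), Abhd2 (0.0574), Sptbn1 (0.108), Grn (0.0715) and Arpc5l (0.0738) were lost as well as that of Cers6. Against a change of 2-fold Rnf213 (0.0520), Abhd2 (0.05004) and Sptbn1 (0.0596) did not pass. After median centring 11 of the 12 lost the call and Rpl13 kept it, where the adjusted p was 0.0635 for Slc7a5 and 0.351 for Rnf213. With total counts the log2 fold change was at least 6.19, the value of Cers6, in each of the 12.

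**Figure D4:**
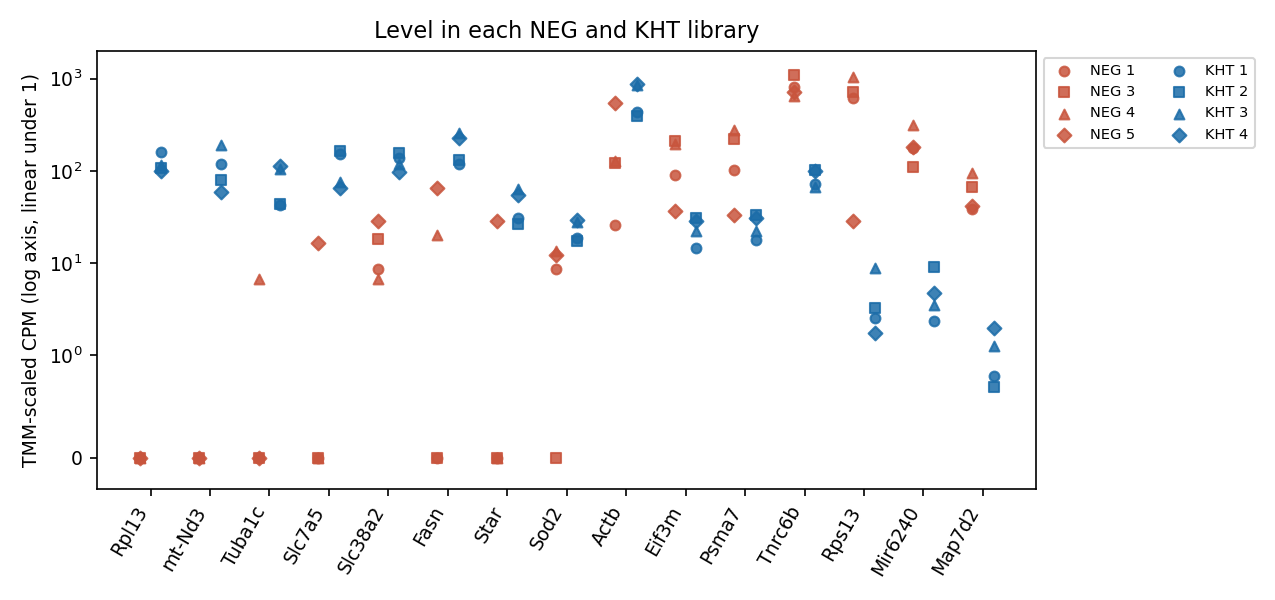
TMM-scaled CPM of 15 genes in each NEG (red) and KHT (blue) library, on an axis that is linear under 1 and logarithmic above it. Rpl13 and mt-Nd3 are at 0 in the 4 NEG libraries, the NEG 5 diamond sits near or within the KHT values for Star, Actb, Eif3m and Psma7, and Rps13, Mir6240 and Map7d2 are higher in each NEG library than in any KHT library.

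Where NEG held at least 4 counts in at least 2 libraries, the 10 largest fold changes that kept their call in each fit without 1 library were between 3.33 and 3.69 on the log2 scale. Nrip1, a corepressor of nuclear receptors (chromosome 16, 76287403 to 76373827), had 0, 1, 0 and 3 counts in NEG and 489, 305, 578 and 237 in KHT. Its CPM was 65.1 ± 4.46 in KHT against 4.61 ± 5.91 in NEG (n = 4 each, ± SD), with a log2 fold change of 3.69 (SE 0.72, adjusted p = 0.00305). Ptbp1, a splicing repressor that binds pyrimidine-rich RNA, had 0, 1, 1 and 2 counts in NEG and 360, 218, 628 and 289 in KHT (log2 fold change 3.56, SE 0.70, adjusted p = 0.00325). No NEG library passed 8.24 CPM for Ptbp1, and no KHT library was under 47.7. Slc38a6 (3.69), Gapvd1, an endosomal exchange factor (3.66), Rmnd5a of the CTLH ubiquitin ligase (3.44), Rcc2, a regulator of chromosome segregation (3.42), Lyst, which controls lysosome size (3.38), Ep400, a chromatin remodeller (3.34), Gna13, a G protein subunit (3.33), and Rpl6 (3.33) were the other 8, given with their log2 fold changes. Their adjusted p-values ran from 0.00349 for Slc38a6 to 0.00744 for Rcc2. After median centring the log2 fold changes of all 10 were between 1.87 and 2.23, and none passed, with adjusted p-values from 0.0851 to 0.203.

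The 72 genes higher under each of the 6 scalings are the higher calls of median centring, the strictest of them for that direction. All were absent or nearly absent from NEG: 60 had no NEG count and 12 had 1 to 3. Under the KHT composition each of the 72 would have had between 11.5 and 79.0 counts in NEG. Rpl13 had 0 counts in NEG against 79.0 expected, and 1196, 469, 1018 and 397 in KHT. It was at least 32.8-fold higher under TMM and at least 561-fold higher under total counts, with NEG set to a floor of 3 counts summed over its 4 libraries. mt-Nd3, a complex I subunit of the mitochondrial genome, was also at 0 with 72.8 counts expected, and had 891, 347, 1664 and 233 in KHT. Tuba1c, an alpha tubulin, had 1 count in NEG, in NEG 4, and 319, 189, 929 and 452 in KHT. The ratio was 60.4 under TMM, with an exact counting interval of 10.8 to 2387 at 95% that covers counting error only. Rpl13, mt-Nd3 and Tuba1c came from the naming rule, and the genes that follow were chosen after their values were seen. Rfwd3, a ubiquitin ligase of DNA repair, had 3 NEG counts with 65.2 expected, and 825, 395, 836 and 409 in KHT. Gnas, the stimulatory G protein that activates adenylyl cyclase upstream of protein kinase A, had 2 counts with 42.9 expected, and 447, 241, 645 and 295 in KHT. Mtor, the kinase that couples nutrients to growth, had 1 count with 29.8 expected, and Apc, which restrains Wnt signalling, had 1 with 29.4 expected. Htt, the huntingtin gene, had 0 with 23.8 expected. Trak1 and Trak2, adaptors that tie mitochondria to motor proteins, had 0 and 1 NEG counts, with 24.8 expected for Trak2. Of the same 72 genes, 8 were unnamed models or pseudogenes, and several were histone and ribosomal protein genes, whose near-identical copies make the share of reads given to each uncertain.

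Of the genes lower in KHT, 2 sets are described. In 14 of the 291 the call of lower held under each of the 6 scalings, total counts included, and 11 of these were unnamed models or pseudogenes. The other 3 were Rps13, Map7d2 and Mir6240, and they were the genes that the naming rule took from this set. Rps13 (chromosome 7, 116331507 to 116334190) had 142, 118, 155 and 7 counts in NEG 1, 3, 4 and 5 and 19, 14, 77 and 7 in KHT 1 to 4. In CPM that was 600 ± 424 in NEG and 4.07 ± 3.19 in KHT (SD, n = 4 each; log2 fold change -7.17, SE 1.10, adjusted p = 0.000691; -2.87 under total counts, adjusted p = 0.00109). NEG 5, at 28.8 CPM, was far under the other NEG libraries and still above the highest KHT value of 8.78. Rps13 has processed copies elsewhere in the genome, so the reads given to it are uncertain. Map7d2, a microtubule-associated protein on chromosome X (159414492 to 159498958, GRCm38), had 9, 11, 14 and 10 counts in NEG and 6, 3, 11 and 8 in KHT. These near-equal counts came from libraries of unequal content, and the log2 fold change was -5.63 under TMM (SE 0.52, adjusted p = 1.9e-06) and -1.53 under total counts (adjusted p = 0.00946).

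Mir6240 and Mir6236 are the 2 gene models of microRNA precursors that were tested, and both were lower in KHT under TMM. Their mature sequences are shown with the seed, bases 2 to 8, in capitals (RefSeq, GRCm38.p6). The counts are over the gene models in a library of long RNA, and nothing here shows that the mature RNA itself was read.
mmu-miR-6240: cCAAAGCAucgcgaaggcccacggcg
mmu-miR-6236: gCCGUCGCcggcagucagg
The seeds differ. Mir6240 (chromosome 5, 114851948 to 114852064) had 41, 18, 46 and 44 counts in NEG and 18, 39, 31 and 19 in KHT, or 194 ± 84.2 and 4.92 ± 2.88 CPM (SD, n = 4 each; log2 fold change -5.32, SE 0.56, adjusted p = 9.1e-06). It was also lower under total counts (-1.27, adjusted p = 0.00342). Mir6236 (chromosome 9, 110281287 to 110281409) had 39660, 29338, 47736 and 36083 counts in NEG and 19470, 25621, 15593 and 31024 in KHT. Its log2 fold change was -5.51 under TMM and -1.44 under total counts, where it did not pass (adjusted p = 0.150). The raw counts of Mir6236 were thus of one order in both groups, while those of most messenger RNAs were not. Mir6236 is itself one of the 9 features that dominate NEG. Its 39660 counts in NEG 1 exceed the 31318 that this library kept outside them.

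By gene type, 3123 of 9446 protein-coding genes (33.1%) were higher and 178 (1.88%) lower. Pseudogenes went the other way, with 17 of 255 higher (6.67%) and 68 lower (26.7%). Pseudogenes and unnamed models together took 35.9%, 32.1% and 37.2% of the counts outside the 9 features in NEG 1, 3 and 4. In NEG 5 that share was within the KHT range, which reached 13.8% in KHT 2. Of 213 long noncoding RNA genes 26 were higher (12.2%) and 4 lower. Both ribosomal RNA models were lower, among them mt-Rnr1, the small ribosomal RNA of mitochondria, which was the largest NEG feature outside the 9 and held a mean of 8.27% of those counts in NEG and 0.816% in KHT. The mean for KHT rested on KHT 3, with 49089 counts against 3346 to 3946 in the other KHT libraries. Next in NEG was Grip2, a scaffold of glutamate receptors, with 2451, 2591, 1013 and 1965 counts in NEG and 979, 2218, 1402 and 1767 in KHT. Its log2 fold change was -5.05 under TMM (adjusted p = 0.00246) and -1.10 under total counts (adjusted p = 0.200). Both genes were singled out after their values were seen.

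The second set is made of lower genes whose direction turned with the scaling. Of the 291, 199 had a positive log2 fold change under total counts. Tnrc6b, which brings silencing complexes to messenger RNAs (chromosome 15, 80711313 to 80941086), had 189, 181, 96 and 173 counts in NEG and 550, 442, 586 and 396 in KHT, and a log2 fold change of -3.26 under TMM (SE 0.72, adjusted p = 0.00486). Eif3h, of the initiation factor eIF3, had 57, 56, 64 and 24 in NEG and 247, 262, 451 and 246 in KHT (-2.43, SE 0.64, adjusted p = 0.0101). Eif3m, of the same factor, had 21, 35, 29 and 9 in NEG and 111, 134, 193 and 113 in KHT (-2.45, SE 0.51, adjusted p = 0.00391). For both eIF3 genes NEG 5 was the NEG library nearest to KHT, at 98.9 and 37.1 CPM against at most 61.7 and 30.9 in a KHT library. Psma7, of the proteasome core (-2.58), and Ppp1r14b, an inhibitor of protein phosphatase 1 (-2.09), had the same pattern. With KHT and NEG fitted alone the lower calls of Eif3h (adjusted p = 0.0773) and Ppp1r14b (0.0698) were lost. Under total counts these 4 genes other than Tnrc6b were called higher, with log2 fold changes from 1.61 to 2.05. Tnrc6b, at 0.76 (adjusted p = 0.197), was not called there. Pecam1, an adhesion molecule of endothelium, had 35, 24, 20 and 5 counts in NEG and 29, 29, 33 and 50 in KHT (-4.09 under TMM, adjusted p = 6e-05, and 0.0031 under total counts, adjusted p = 0.995).

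The mitochondrial lists showed 2 kinds of result. In the list for pyruvate entry and the citric acid cycle, 12 of 18 (66.7%) were higher and none lower, beside 31.0% higher and 2.72% lower over all genes tested (median log2 fold change 2.06 beside 1.73). The list was not matched for expected counts, and 44.3% of all genes with at least 10 expected NEG counts were higher. With genes at 0 in NEG set to the floor of 3 counts, the median log2 of pooled ratios was 1.92 beside 0.932. Pcx, pyruvate carboxylase, had 0, 1, 0 and 3 counts in NEG and 287, 174, 450 and 161 in KHT (3.07, adjusted p = 0.00474). Idh3a, Idh3b and Idh3g, the 3 subunits of the NAD-dependent isocitrate dehydrogenase, rose by 1.90, 1.56 and 2.73, and the first and second of these calls did not hold in each fit without 1 library. The list took 0.0255%, 0.0280%, 0.0260% and 0.198% of the counts outside the 9 features in NEG 1, 3, 4 and 5 and 0.226% to 0.294% in KHT, so NEG 5 stood next to KHT and the other NEG libraries far below. Its count of higher genes was 7 without NEG 1, 7 without NEG 4 and 17 without NEG 5. Of the subunits of complexes II and III 5 of 14 (35.7%, near the share of all genes) were higher, including Sdha, the catalytic subunit of succinate dehydrogenase (2.10, adjusted p = 0.0122), and Uqcrc1 (2.22, adjusted p = 0.0156). Both calls were lost with KHT and NEG fitted alone (0.0734 and 0.0523) and against a change of 2-fold (0.0561 and 0.0620). This became 3 without NEG 1 or without NEG 3 and 14 without NEG 5.

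Complex I had 8 higher and 3 lower of 37, a share of 21.6% higher beside the 31.0% of all genes. Ndufc1 was at 0 in NEG and at 83, 60, 85 and 45 counts in KHT, and was at least 2.91-fold higher (adjusted p = 0.00548). Ndufab1, the acyl carrier protein, had 40, 45, 38 and 9 counts in NEG and 107, 162, 75 and 79 in KHT and was lower (-3.20), and Ndufs4 (-2.57) and Ndufb7 (-1.34) were lower too. The count of higher complex I genes was 5 without NEG 1 and 21 without NEG 5, and that of lower ones was 1 without NEG 3. Complex IV had 2 higher and Cox5a lower (-1.93) of 12, and ATP synthase 5 higher and Atp5l lower (-1.31) of 16. For complex IV the higher count was 7 without NEG 5, 0 without NEG 3, NEG 4 or KHT 1 and 1 without NEG 1, KHT 3 or KHT 4. For ATP synthase it was 3 without NEG 3 and 11 without NEG 5, and the lower count was 0 without any 1 library other than NEG 5 and 2 without NEG 5. Over all 79 nuclear genes of oxidative phosphorylation the counts were 20 and 5, with 13 higher without NEG 1 or without NEG 3, 53 without NEG 5, 2 lower without NEG 3 and 3 lower without NEG 4. As a share of the counts outside the 9 features these genes took 0.645% to 1.2% in NEG and 0.910% to 1.07% in KHT, ranges that overlap. Of the 13 messenger RNAs of the mitochondrial genome, mt-Nd3 and mt-Nd4l were called higher under TMM and also after median centring. The other 11 did not pass, and without NEG 5 the count was 7. The 13 together took 0.0160%, 0.667%, 0.442% and 2.35% of those counts in NEG 1, 3, 4 and 5 and 1.74% to 2.03% in KHT, so the NEG libraries spanned a wider range than KHT and enclosed it.

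The lists for building and feeding the organelle were near the 31.0% of all genes tested. Of the mitochondrial ribosome 22 of 79 genes (27.8%) were higher and Mrpl21 was lower. Mrpl18 was at 0 in NEG and at 131, 79, 156 and 65 counts in KHT, and was at least 4.59-fold higher (adjusted p = 0.00346). Mrpl21 had 6, 9, 14 and 10 counts in NEG and 67, 90, 109 and 43 in KHT (-1.97 under TMM, adjusted p = 0.00448, and 2.11 under total counts). The count of higher genes was 12 without NEG 1 and 41 without NEG 5, and 3 were lower without NEG 5. Mitochondrial import had 12 of 33 (36.4%) higher, among them Samm50 of the outer membrane sorting machinery, with 2 counts in NEG and 171, 139, 222 and 81 in KHT, and Dnajc19 of the import motor lower (-1.34), a call that did not hold in each fit without 1 library. The 12 became 8 without NEG 4 and 20 without NEG 5. None of the genes in these 2 lists was called higher after median centring.

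Of the cytosolic ribosome 27 of 81 genes (33.3%) were higher, near the 31.0% of all genes tested, and 10 were lower, beside 2.72% of all genes. Rpl9 had 0 counts in NEG and 434, 338, 617 and 280 in KHT (at least 17.8-fold higher, adjusted p = 0.000737), and Rps7 had 3 counts, all in NEG 5, and 416, 205, 334 and 200 in KHT. In contrast Rpl24 had 129, 136, 118 and 0 in NEG and 392, 283, 190 and 129 in KHT (-3.67), and Rps19 had 242, 302, 352 and 27 against 725, 1757, 805 and 830 (-2.74). For both Rpl24 and Rps19 NEG 5 was the lowest NEG library. The whole list took 5.60%, 5.47%, 6.96% and 2.31% of the counts outside the 9 features in NEG 1, 3, 4 and 5 and 2.30% to 3.14% in KHT. NEG 1, 3 and 4 were thus above each KHT library, and NEG 5 was within the KHT range. The higher count was 16 without NEG 3 and 47 without NEG 5. The lower count was 5 without NEG 3 or NEG 4, 15 without NEG 5, 3 without KHT 1 or KHT 3 and 5 without KHT 4. Ribosomal protein genes have many processed copies, so the division of reads among them is uncertain.

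Replication-dependent histone genes, whose messenger RNAs end in a stem-loop and lack a poly(A) tail, were higher in 33 of 59 tested (55.9%, beside 31.0% of all genes tested) and lower in none. Among all genes with at least 10 expected NEG counts 44.3% were higher, and the histones were not matched for expected counts. By class these were 4 of 5 genes of H1, 9 of 15 of H2A, 4 of 16 of H2B (a smaller share than that of all genes), 7 of 11 of H3 and 9 of 12 of H4. Hist1h4n had 0 counts in NEG and 538, 302, 588 and 270 in KHT, and at 68.9 ± 1.92 CPM (SD, n = 4) was nearly level across the KHT libraries (at least 18.1-fold higher). Hist1h1a had 5 counts in NEG, all in NEG 5, and 603, 306, 661 and 268 in KHT (3.58, SE 0.79, adjusted p = 0.00484). Hist1h3b, by contrast, had its 3 NEG counts in NEG 3, and Hist1h4h its 3 in NEG 4. After median centring 7 of the 59 stayed higher. The histone share of the counts outside the 9 features was 0.0287%, 0.132%, 0.214% and 0.589% in NEG 1, 3, 4 and 5 and 0.776% to 1.01% in KHT, with no overlap. The count of higher histone genes was 24 to 48 over the 8 fits without 1 library, and none of those fits moved it by more than 1.5 times, while counts within a class moved more (H1 was 1 without NEG 3 and H2B 11 without NEG 5). The genes are near-identical within a class, and which copy a read came from is uncertain.

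**Figure D5:**
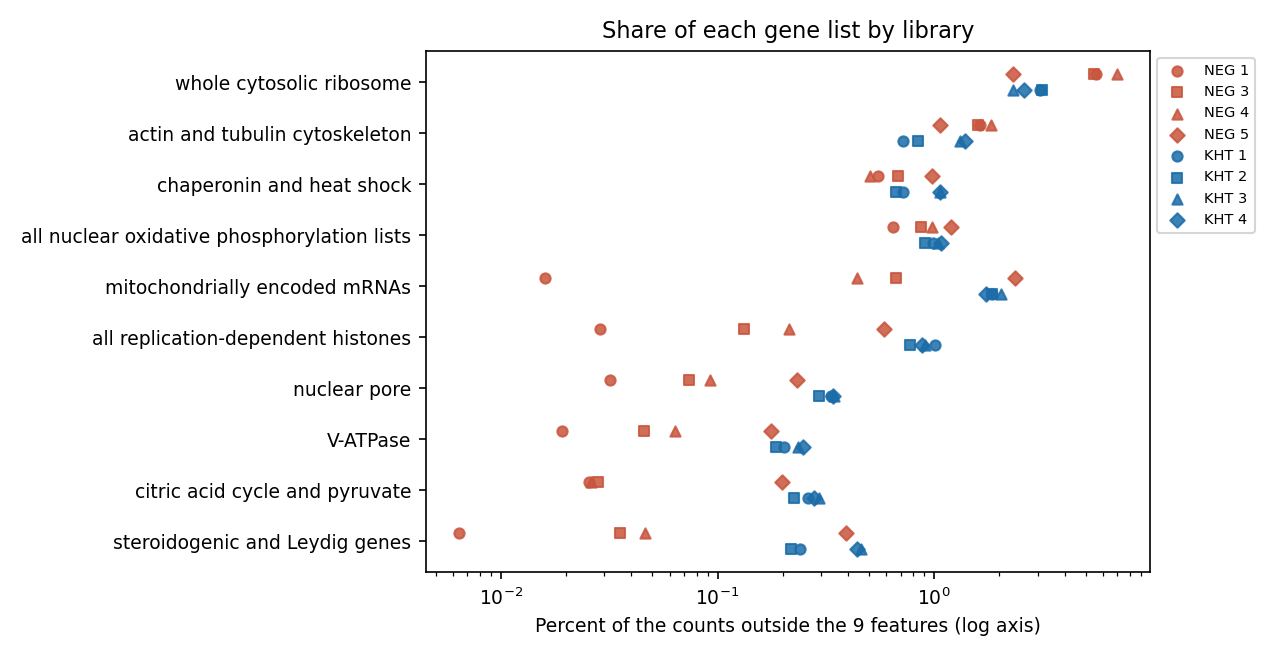
Share of the counts outside the 9 features taken by each of 10 gene lists, in percent on a log axis, for each NEG (red) and KHT (blue) library. Histone, nuclear pore, V-ATPase and citric acid cycle genes have no overlap between the groups, the cytosolic ribosome is higher in NEG 1, 3 and 4 than in KHT, and the NEG 5 diamond lies nearer to KHT than the other NEG libraries do in most lists.

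Large assemblies outside mitochondria are given beside the 31.0% higher, 2.72% lower and median of 1.73 over all genes tested. They were not matched for expected counts, and 44.3% of all genes with at least 10 expected NEG counts were higher. With genes at 0 in NEG set to the floor of 3 counts, the median log2 of pooled ratios over all genes was 0.932. On that scale the median was 2.06 for the vacuolar ATPase, 1.88 for the nuclear pore and 1.39 for the RNA helicases. Of the vacuolar ATPase, the proton pump of lysosomes, 11 of 16 genes (68.8%) were higher and none lower (median 2.14). Atp6v0c, of the membrane ring, had 2 counts in NEG, both in NEG 5, and 296, 169, 568 and 192 in KHT (ratio 19.6, 95% counting interval 5.41 to 162, adjusted p = 0.00269). Atp6v1f was at 0 in NEG and at 90, 59, 135 and 80 in KHT. Without NEG 1 the count was 6. Of the nuclear pore 15 of 26 (57.7%) were higher and none lower (median 1.85). Nup188, of the inner ring, had 0 counts in NEG and 389, 225, 370 and 159 in KHT (at least 12.2-fold higher, adjusted p = 0.000726), and it was the member of this list that stayed higher after median centring. Nup54 had 1 count and Nup93 had 2, all in NEG 3. Without NEG 1 the count was 9. Of the RNA helicases 16 of 38 (42.1%, median 1.42) were higher and none lower. That share is near the 44.3% of all genes with at least 10 expected NEG counts. Among the higher helicases was Upf1, which drives nonsense-mediated decay, with 2 counts in NEG 5 and 243, 162, 411 and 175 in KHT (3.98, SE 0.78, adjusted p = 0.00309). Ddx42 had 0, 2, 2 and 2 counts in NEG and 333, 157, 296 and 128 in KHT (2.24, adjusted p = 0.0106), a call lost with KHT and NEG fitted alone (0.0590). The helicase count was 9 without NEG 1, 10 without NEG 4 and 29 without NEG 5.

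The other assemblies had shares of higher genes near or under the 31.0% of all genes tested. Among core spliceosome genes 10 of 32 (31.2%) were higher and 3 lower. The higher ones included Sf3b3 of the branch-point complex, with 0, 0, 1 and 6 counts in NEG and 659, 320, 688 and 262 in KHT (3.15, adjusted p = 0.00614), and Prpf6, Prpf8 and Eftud2 of the tri-snRNP. The lower ones were Snrpd1, Snrpd2 and Snrpe, small proteins of the Sm ring. Snrpe had 45, 25, 43 and 7 counts in NEG and 115, 166, 131 and 145 in KHT (-2.65). The higher count was 5 without NEG 1 or NEG 4, 6 without NEG 3 and 16 without NEG 5. In the proteasome core Psmb3, at 0 in NEG, and Psma1 were higher while Psma6, Psma7 and Psmb6 were lower, and the 3 lower calls held in each fit without 1 library. In the proteasome cap 3 of 18 (16.7%) were higher and none lower. Over the 32 genes of both parts the higher count of 5 became 3 without NEG 1, NEG 3 or NEG 4 and 15 without NEG 5. Chaperonin and heat shock genes had none higher and Hspe1 lower of 19. Without NEG 5 there were 11 higher, and the lower count was 0 without NEG 3 or any 1 KHT library. Hspa8, a constitutive chaperone, had 0, 7, 0 and 73 counts in NEG and 1362, 649, 4291 and 1895 in KHT and did not pass (1.88, adjusted p = 0.158). Its NEG counts lay almost wholly in NEG 5. Of the COPI and COPII vesicle coats 6 of 18 (33.3%) were higher, and none were without NEG 1. That count was also 3 without NEG 3, 2 without NEG 4, 12 without NEG 5 and 3 without KHT 3 or KHT 4.

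Of the actin and tubulin genes 6 of 29 (20.7%) were higher, under the 31.0% of all genes tested, and 5 were lower, beside 2.72% of all genes. Capza1, which caps actin filaments, had 0 counts in NEG and 307, 184, 394 and 143 in KHT (at least 10.96-fold higher, adjusted p = 0.000811), and Arpc1b rose from 5.44 ± 6.64 to 43.0 ± 3.42 CPM (SD, n = 4 each). Pfn1, which delivers actin monomers, had 134, 160, 105 and 11 counts in NEG and 199, 573, 397 and 284 in KHT (-3.06), and Tmsb10, which holds monomers back, had 159, 183, 247 and 3 against 19, 685, 158 and 258 (-3.84). Both were low in NEG 5. The higher count was 17 without NEG 5, and the lower count was 3 without NEG 1, KHT 1, KHT 3 or KHT 4 and 2 without NEG 3 or NEG 4. Actb itself had 6, 20, 19 and 132 counts in NEG and 3288, 1708, 7536 and 3460 in KHT and did not pass (1.63, SE 0.86, adjusted p = 0.129), with NEG 5, at 544 CPM, above KHT 1 and 2. Gapdh likewise did not pass (1.12, adjusted p = 0.332), with its 74 NEG counts in NEG 3 and NEG 5. Without NEG 5 both passed (2.87, adjusted p = 0.00393 for Actb and 2.81, adjusted p = 0.0175 for Gapdh).

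Lists tied to dAKAP1 and to steroid synthesis held from 18.2% (kinase A anchoring) to 57.1% (partners) higher genes, beside 31.0% of all genes tested, and most of them are short. Of 3 reported ligands, taken from background knowledge, Star passed and Sod2 and Atp5j2 did not. The 7 NEG counts of Star, which delivers cholesterol to the inner mitochondrial membrane, lay in NEG 5, whose 28.8 CPM fell between the KHT values of 26.2 and 63.5. Star passed under TMM (2.35, adjusted p = 0.0293), and adjusted p was between 0.0505 and 0.100 when NEG 1, NEG 3, NEG 4, KHT 3 or KHT 4 was left out, so that the call was lost in 5 of those 8 fits. It was also lost when library size came from the counts outside the 9 features (0.0551), among genes averaging 10 CPM or more (0.0560), against a change of 2-fold (0.0772) and with halved values (0.0590). Without NEG 5 all 3 ligands were called higher, as they were under total counts and with DESeq2 (adjusted p = 0.0351 for Sod2 and 0.0146 for Atp5j2). Atp5j2 also passed with limma voom (0.0221), without the filter on low counts (0.0358) and with a replicate block (0.00415). None of the 3 passed after median centring, with library size from the counts outside the 9 features or against a change of 2-fold. Of 7 tested partners of dAKAP1, Larp4, Pabpc4, Mdh2 and Ptpn21 were higher, and 2 of the 7 were without NEG 1. Larp4 (2.21, adjusted p = 0.0228) lost its call among genes averaging 10 CPM or more (0.0618), with KHT and NEG fitted alone (0.109) and against a change of 2-fold (0.0694). Pabpc4, a poly(A)-binding protein, had its 4 NEG counts in NEG 3 and 396, 208, 447 and 186 counts in KHT (3.24, adjusted p = 0.0062). Pabpc1, its abundant relative, had 146, 116, 134 and 24 in NEG and 1057, 894, 1245 and 659 in KHT and did not pass (-1.84, adjusted p = 0.0604). Of 18 steroidogenic and Leydig genes 5 (27.8%) were higher and none lower. They included Tspo, with 2 counts in NEG 5 and 174, 93, 305 and 184 in KHT (3.62, adjusted p = 0.00564), and Scarb1, the receptor for high-density lipoprotein (3.01). The count was 2 without NEG 1, 3 without NEG 3 and 11 without NEG 5. Of 22 genes of kinase A anchoring and signalling the 4 that rose were the anchoring proteins Akap10, Akap11, Akap12 and Akap13, and 14 were higher without NEG 5. Akap1, the gene of the bait protein, did not pass (0.72, adjusted p = 0.320).

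Small and nuclear noncoding RNAs were higher in 5 of 17 (29.4%), near the 31.0% of all genes tested. Snhg6, a host of small nucleolar RNAs, was at 0 in NEG and at 86, 59, 87 and 29 in KHT (at least 2.78-fold higher), and Rmrp, the RNA of RNase MRP, had 0, 6, 11 and 51 in NEG and 3437, 2690, 3862 and 1773 in KHT (2.60, adjusted p = 0.0380). Malat1 (1.46, adjusted p = 0.189) and Rn7sk (1.62, adjusted p = 0.211) did not pass, and both were highest in NEG 5 among the NEG libraries. The count was 3 without NEG 3 or NEG 4 and 10 without NEG 5.

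Markers of other cell types were set beside these results. Of epithelial and skin keratins, Krt17 had 35, 46, 89 and 2 counts in NEG and 4, 263, 17 and 47 in KHT, and Krt14 had 17, 26, 14 and 0 against 0, 98, 11 and 22. Neither passed, and 3 of the 12 markers in the table could be tested. The list took 0.195%, 0.216%, 0.332% and 0.00408% of the counts outside the 9 features in NEG 1, 3, 4 and 5 and 0.00178%, 0.0397%, 0.00314% and 0.0109% in KHT 1 to 4. Cdh1, Krt8 and Flg were at 0 in all 8 libraries. NEG 1, 3 and 4 thus gave these RNAs a larger share than any KHT library, NEG 5 did not, and 3 of the list were called lower without NEG 5. Their part in the other results was not tested. Of 6 tested Sertoli cell markers Clu rose (2.97, adjusted p = 0.00886), while the defining genes Amh, Fshr and Wt1 had 2, 1 and 0 counts over the 8 libraries. Ckm, a muscle creatine kinase, rose from 0 to 73, 24, 44 and 25 counts, while Acta1, Myh11 and Des, other muscle genes, had 0 in NEG and at most 11 in a KHT library. Ptprc and Vwf, of leukocytes and endothelium, were at 0 in NEG and at most 2 and 7 in a KHT library, and 2 of the 6 markers of that list could be tested. The list took 0.112%, 0.0662%, 0.0635% and 0.0143% of the counts outside the 9 features in NEG 1, 3, 4 and 5 and 0.00662% to 0.00947% in KHT, nearly all of it Pecam1 in NEG. The germ cell marker Ddx4, the single member tested, was at 0 in NEG and did not pass.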

How the data were processed

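RNA of 4 KHT and 4 NEG pull-downs and 4 input libraries of MA-10 cells was measured by RNA sequencing. The deposited values are estimated counts per gene (expected counts, unscaled), already whole numbers, so rounding changed none. The tools named are kallisto and DESeq2, and the builds GRCm38 and mm10, per the submitters' processing notes. Versions and the step from transcripts to genes are not given in the sources used here. Per the labels' protocols the kit was stranded with depletion of ribosomal RNA, while the molecule field names polyA RNA. The description of the KHT samples speaks of negative controls, so groups were taken from titles and treatments. Values of 2 outnumbered values of 1 in each library, as counting both mates would give, and this was not settled.

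Genes passing filterByExpr (10714 of 27071) were fitted with edgeR 4.0.16 (R 4.3.3; TMM, 3 groups, 12 libraries, robust quasi-likelihood test, two-sided, Benjamini-Hochberg over all tested genes, threshold 0.05), for the contrast of KHT with NEG. Alternatives were 5 other scalings, DESeq2 1.42.0, limma voom 3.58.1, other filters, the 2 groups alone, a test against a 2-fold change, halved values, a replicate block and 8 fits without 1 library. Median centring set the median log2 fold change to 0 over genes whose mean reached 10 CPM. Genes at 0 in NEG were compared with a floor of 3 counts over the group. Floors and exact (Clopper-Pearson) 95% intervals cover counting error only and are too narrow if mates were counted separately.

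Named genes kept the call in each fit without 1 library, had no overlap between groups, averaged at least 5 CPM, and were no unnamed models or pseudogenes. They were the 12 most abundant higher genes, the 10 largest increases with at least 4 NEG counts in at least 2 libraries, up to 12 genes lower under TMM and under total counts (3 passed), the 6 most abundant in NEG whose sign turned under total counts, up to 3 per list, and always Star, Sod2, Atp5j2, Larp4, Akap1, Actb and Gapdh. Other genes, among them the lower members of each list, Mir6236 and the marker genes, were chosen after their values were seen. The members and the 35 lists were chosen with earlier results of these data known. Symbols matched 27004 identifiers, and coordinates and microRNA sequences are from RefSeq on GRCm38.p6.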

Additional observations from a re-analysis of the deposited data

Results flagged for a closer look

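Among 206 groups of 4 libraries, 31 held a library whose gap to its nearest neighbour was over the 95% critical value of Dixon's test as a share of the group's range, and chance alone flags about 1 in 20. Most were genes counted in a single NEG library, so the flag marks the only value above 0. NEG 5 was that library for Slc7a5 (16.5 CPM), Ndufa10 (4.12), Ndufb5 (4.12), Cyc1 (16.5), Atp5o (20.6), Dlst (12.4), Rps7 (12.4), Hist1h1a (20.6), Eftud2 (16.5), Upf1 (8.24), Atp6v0c (8.24), Atp6v0a2 (4.12), Tspo (8.24), Fdxr (16.5), Star (28.8) and Atp5j2 (28.8), all against 0 in the other NEG libraries. NEG 3 was the one for Samm50 (12.2 CPM), Hist1h3b (18.3), Hist1h3c (12.2), Nup54 (6.09), Nup93 (12.2) and Pabpc4 (24.3), and NEG 4 for Hist1h3f (13.5), Hist1h4h (20.3) and Tuba1c (6.75). Each of these values is 1 to 7 counts.

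The remaining flags had values above 0 on both sides or a wider spread. Fam120a was at 54.8 CPM in NEG 3 against at most 8.24 in the other NEG libraries. Pecam1 was at 20.6 CPM in NEG 5 against 135 to 150 in NEG 1, 3 and 4. In KHT, Ppp1r14b stood at 35.9 CPM in KHT 2 against 26.1 to 26.3, and Atp5j at 40.5 in KHT 3 against 27.6 to 28.6. Mrpl15 was at 23.6 CPM in KHT 1 against 14.2 to 14.5, and Hist1h2ap at 29.5 in KHT 2 against 42.4 to 42.9.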

How the results depend on the processing

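The number of genes higher in KHT than in NEG, 3324, became 10426 with total counts, 72 with median centring, 1118 among genes whose mean reached 10 CPM, 2103 with KHT and NEG alone, 1734 against a 2-fold change and 1762 with halved values. The number lower, 291, became 14, 516, 302, 269, 150 and 227 in the same order, and 791 without the filter on low counts, where 3815 were higher. Leaving out 1 library at a time gave 1721 to 5421 higher and 174 to 454 lower genes. DESeq2 gave 3985 and 393, and limma voom 3504 and 258. Scaling by the upper quartile was not run, because that quantile is 0 in NEG 1. A replicate block, which treats equal replicate numbers as pairs, gave 5042 higher and 358 lower genes. Deviations of same-numbered KHT and NEG libraries correlated at -0.26, -0.18 and 0.15 for numbers 1, 3 and 4, and NEG 5 has no KHT partner. Libraries of unlike number gave -0.49 to 0.41. Many NEG values are 0, so these correlations cannot decide whether the numbers mark pairs.

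Of the 99 named genes, 7 turned direction under total counts: Tnrc6b (0.76), Eif3h (1.72), Psma7 (1.61), Eif3m (1.68), Ppp1r14b (2.05), Pecam1 (0.0031) and Mrpl21 (2.11, all log2 fold changes). Median centring ended the call of 71, the fit of KHT and NEG alone of 16 and the test against a 2-fold change of 12, and TMMwsp and the DESeq2 size factors changed none. The causes were not tested. In NEG 2986 tested genes had no count, and for 182 of them at least 10 would be expected from the KHT composition and fewer than 10 for the rest.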
